A study of Mus musculus with 6 samples.

Results

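Glycolysis breaks glucose down to pyruvate in the cytosol, and 10 genes encoding enzymes of this route (Gpi1, Pfkl, Aldoa, Tpi1, Gapdh, Pgk1, Pgam1, Eno1, Pkm and Ldha) were followed by symbol through single spleen Treg cells. They were 10 of the 14098 genes in the deposited table of raw UMI counts (a UMI marks 1 captured RNA molecule), and all 10 reached 20 CPM (UMIs scaled to a total of 1000000), as did 4844 genes in all. The study sampled EGFP-positive, sorted Foxp3+ Treg cells of C57BL/6 mice aged 18 to 21 weeks: 3 cKO samples (Bach2fl/fl Foxp3EGFP-Cre-ERT2) and 3 WT samples (Bach2+/+ Foxp3EGFP-Cre-ERT2). Both genotypes carry the same EGFP and Cre-ERT2 allele at Foxp3, the gene of the Treg lineage factor, so any recombination is limited to cells that express Foxp3. Cre-ERT2 acts only after tamoxifen, and the labels used here give no dosing. Bach2 is a transcriptional repressor of the bZIP family. The count table gave each cell a barcode ending in a number from 1 to 6, and neither the labels nor the barcodes say which number belongs to which sample. The 6 barcode sets therefore have no known genotype, cKO and WT cells were not compared, and no p-value was computed.

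In T cells, glycolysis supplies ATP and carbon for growth, and engagement of the T cell receptor (TCR) with its costimuli is known to raise it through mTORC1, Myc and HIF-1α. Resting T cells rely mostly on mitochondrial oxidation. In Treg cells, Foxp3 is known to restrain Myc and glycolysis, while activation, migration and proliferation are known to draw on it. Along the route, Gpi1 turns glucose 6-phosphate into fructose 6-phosphate, and Pfkl is the liver-type subunit of phosphofructokinase, which makes the committed step. Aldoa splits the resulting hexose bisphosphate, and Tpi1 interconverts the products. Gapdh makes NADH, Pgk1 and Pkm make ATP, and Pgam1 and Eno1 (enolase) form the intermediates between those 2 kinases. Ldha reduces pyruvate to lactate and regenerates NAD+.

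The promoters of the genes at the ends of the range in TCR-stimulated-like cells (Tpi1 highest, Eno1 lowest) and of the pair with the highest ratios among the genes holding the letters ACGTG (Pgam1 and Gapdh) are shown to let the windows be compared. They are RefSeq windows on GRCm38.p6, from 250 bases before to 50 after a start, 5′ to 3′ on the gene's strand. Capitals mark ACGTG (the core of the hypoxia response element) and GGGCGG (a GC box, bound by Sp1), on either strand.
Tpi1, chr6:124814109-124814408, minus strand: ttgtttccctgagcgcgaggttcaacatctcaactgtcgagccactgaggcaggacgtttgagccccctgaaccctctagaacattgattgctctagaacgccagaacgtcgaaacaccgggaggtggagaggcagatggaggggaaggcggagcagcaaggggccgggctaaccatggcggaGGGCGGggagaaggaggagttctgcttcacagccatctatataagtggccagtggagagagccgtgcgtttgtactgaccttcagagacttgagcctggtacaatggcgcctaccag
Eno1, chr4:150236458-150236757, plus strand: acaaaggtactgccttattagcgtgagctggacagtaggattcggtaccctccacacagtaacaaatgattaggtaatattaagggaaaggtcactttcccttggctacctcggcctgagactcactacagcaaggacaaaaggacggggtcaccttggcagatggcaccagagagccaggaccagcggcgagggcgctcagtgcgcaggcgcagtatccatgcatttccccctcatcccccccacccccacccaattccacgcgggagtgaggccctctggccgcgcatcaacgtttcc
Pgam1, chr19:41911621-41911920, plus strand: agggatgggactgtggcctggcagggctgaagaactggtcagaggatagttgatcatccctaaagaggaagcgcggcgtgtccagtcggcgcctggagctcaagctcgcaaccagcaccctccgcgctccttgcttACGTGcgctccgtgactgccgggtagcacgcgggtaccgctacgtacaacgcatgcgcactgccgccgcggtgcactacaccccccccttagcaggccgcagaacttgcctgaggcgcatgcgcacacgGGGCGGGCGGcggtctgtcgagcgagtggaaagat
Gapdh, chr6:125165724-125166023, minus strand: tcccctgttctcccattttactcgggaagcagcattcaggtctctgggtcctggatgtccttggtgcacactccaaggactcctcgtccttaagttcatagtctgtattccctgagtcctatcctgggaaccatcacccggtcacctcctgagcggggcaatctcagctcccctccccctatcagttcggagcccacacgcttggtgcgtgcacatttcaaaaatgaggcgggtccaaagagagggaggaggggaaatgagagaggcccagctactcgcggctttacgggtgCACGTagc
The Eno1 and Tpi1 windows printed hold no ACGTG on either strand. The Eno1 window printed also holds no GGGCGG. Windows 2 and 3 of Eno1, which overlap each other and are not printed, hold no ACGTG and 3 GGGCGG each. Of the 10 genes, 6 had ACGTG in at least 1 of their 16 windows, in 7 windows, against 19.6% of all 32851 RefSeq mouse windows of the same length. GGGCGG occurred in 11 of the 16 windows and in 9 of the 10 genes, Gapdh being the gene without it, against 35.7% of all windows. The E-box CACGTG, which contains ACGTG and is bound by Myc, was in 1 of the 16 windows (Ldha), against 7.15% of all windows. TGANTCA, the letters bound by AP-1 and Bach factors, was in 1 of the 16 windows (Aldoa), against 7.81% of all windows. In the GENCODE annotation of mm10, the protein-coding gene Tpi1 spans chr6:124810586-124814296 and Gapdh chr6:125161715-125166467, both on the minus strand, and Pgam1 spans chr19:41911923-41918660 and Eno1 chr4:150236721-150248879, both on the plus strand. The symbol Aldoa names 2 neighbouring genes of chromosome 7 there, and the count table gives only the symbol. Several windows of 1 gene overlap, and a match is a run of letters, not a measured site.

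The table held 10685 cells and 25389602 UMIs, with 507 to 22130 UMIs per cell and 1641 to 1902 cells per barcode set. Of these cells, 307 carried UMIs of B, myeloid, CD8 or erythroid marker genes past a fixed limit and were left out, which kept 10378 cells, called Treg cells here. All 7 Treg markers (Foxp3, Ikzf2, Il2ra, Ctla4, Tnfrsf18, Cd3e and Cd4) had UMIs in every cell state described below. With pooled UMIs this is a low bar and does not establish identity. Their sum was lowest in resting-like cells, at 1863 CPM. It was 3558 CPM in TCR-stimulated-like, 3084 CPM in effector-like, 2476 CPM in interferon-response-like and 2158 CPM in cycling-like cells. Foxp3 (20.7 against 15.8 CPM) and Il2ra (130 against 118 CPM) were higher in resting-like than in TCR-stimulated-like cells. There were 63 barcodes that occurred in more than 1 set. Doublets were not called.

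Over all Treg cells, Gapdh was present at 693 CPM (622 to 766 CPM across the 6 sets), Ldha at 471 CPM (419 to 497) and Pfkl at 28.2 CPM (24.6 to 31.8). These are tags from the 3′ end of each RNA, so the order of the levels between genes is not a measure of enzyme amount. Aldoa stood at 452 CPM, Eno1 at 444 CPM, Pkm at 436 CPM and Gpi1 at 280 CPM. Pgk1 (83.2 CPM), Pgam1 (59.9 CPM) and Tpi1 (59.4 CPM) were low. The sets differed little for Eno1, whose highest set was 1.07-fold its lowest, and most for Pgam1, at 1.67-fold (69.6 CPM in set 1, 41.8 CPM in set 2). Barcode set 2 was the lowest for 7 of the 10 genes (Gpi1, Aldoa, Gapdh, Pgk1, Pgam1, Eno1 and Ldha). The share of all genes tested that were lowest in set 2 was not counted, so this is no finding about the 10 genes. The highest and lowest sets of Gapdh, long used as a reference gene in RNA assays, differed by 1.23-fold.

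Cell states were assigned from marker UMIs after each cell had been thinned to 1000 UMIs, by a count of distinct marker genes in which none of the 10 genes takes part. This gave 649 TCR-stimulated-like cells (markers such as Nr4a1, Egr2 and Tnfrsf9), 1105 effector-like cells (S100a4, Ccr2, Klrg1), 162 interferon-response-like cells (Ifit3, Isg15), 47 cycling-like cells (Mki67, Top2a) and 1582 resting-like cells (Ccr7, Tcf7, Lef1), while 6529 cells stayed unassigned. Not every marker followed its list. Il7r, a resting marker, stood at 227 CPM in effector-like, 175 CPM in interferon-response-like and 170 CPM in resting-like cells. Crip1, an effector marker, stood at 3390 CPM in effector-like, 1318 CPM in resting-like and 507 CPM in TCR-stimulated-like cells. Levels were then taken from all UMIs of a state. A gene was called higher or lower where its pooled level differed by at least 0.32 on the log2 scale and all 6 sets went the same way. All state comparisons below except the pair of activated states use the same resting-like cells.

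In TCR-stimulated-like cells, 7 of the 10 genes were called higher than in resting-like cells and 1 was called lower. Of all 4844 genes tested, 21.1% were called higher and 6.15% lower. Tpi1 was 3.0-fold higher, Pfkl 2.27-fold, Pgam1 2.07-fold, Gapdh 1.78-fold, Aldoa 1.75-fold, Pkm 1.66-fold and Pgk1 1.60-fold. Eno1 was lower, at 0.782-fold, while Ldha (1.19-fold) and Gpi1 (1.02-fold) were not called. The median log2 ratio was 0.77 over the 10 genes and 0.22 over all genes tested.

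**Figure D1:**
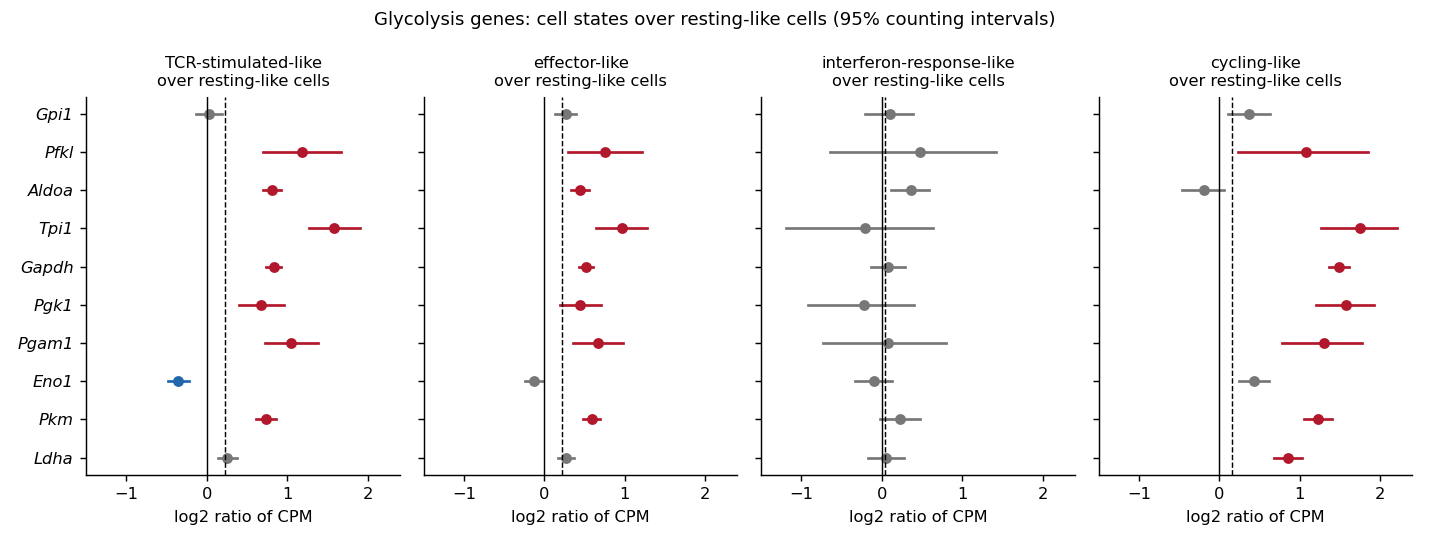
Log2 ratio of the CPM of each glycolysis gene (rows, in pathway order) in 4 cell states over resting-like cells. Points are pooled UMIs and bars are 95% intervals of counting error; red marks genes called higher, blue genes called lower and grey genes not called, the solid line is 0, and the dashed line is the median gene. In TCR-stimulated-like cells Tpi1 stands highest at 1.58 and Eno1 lowest at -0.35, in interferon-response-like cells no gene is called, and in cycling-like cells Aldoa is at -0.20.

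Among the enzymes of the upper part of the route, Tpi1 ranged over the sets from 73.5 to 154 CPM (median 102 CPM) in TCR-stimulated-like cells and from 28.2 to 47.3 CPM (median 38.6 CPM) in resting-like cells. Every set of TCR-stimulated-like cells was above every set of resting-like cells, and the pooled log2 ratio was 1.58 (95% counting interval 1.27 to 1.91). Tpi1 stood above 98.2% of the genes tested. Pfkl ranged from 28.6 to 62.8 CPM (median 44.3 CPM) in TCR-stimulated-like cells and from 13.5 to 24.6 CPM (median 19.7 CPM) in resting-like cells, a log2 ratio of 1.18 (0.70 to 1.66). Its groups did not overlap either, but rest on 70 UMIs in TCR-stimulated-like cells and 80 in resting-like cells. Aldoa ranged from 549.6 to 696 CPM (median 627 CPM) in TCR-stimulated-like cells and from 292 to 412 CPM (median 376 CPM) in resting-like cells, a log2 ratio of 0.81 (0.69 to 0.93), again with no overlap. Gpi1, the enzyme at the entry of the route, ranged from 219 to 289 CPM (median 265 CPM) in TCR-stimulated-like cells and from 225 to 298 CPM (median 260.1 CPM) in resting-like cells. The Gpi1 groups covered the same range, and 2 of 6 sets were higher.

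In the lower part of the route, Gapdh ranged from 789 to 1114 CPM (median 988 CPM) in TCR-stimulated-like cells and from 437 to 615 CPM (median 561 CPM) in resting-like cells, a log2 ratio of 0.83 (0.74 to 0.92). The sets did not overlap. Pgam1 ranged from 63.7 to 119 CPM (median 85.5 CPM) in TCR-stimulated-like cells and from 31.0 to 53.6 CPM (median 45.3 CPM) in resting-like cells, a log2 ratio of 1.05 (0.72 to 1.38). Pkm ranged from 498 to 599.5 CPM (median 568 CPM) in TCR-stimulated-like cells and from 282 to 402 CPM (median 354 CPM) in resting-like cells, a log2 ratio of 0.73 (0.61 to 0.86). Neither Pgam1 nor Pkm showed overlap between the states. Pgk1 ranged from 68.6 to 155 CPM (median 115 CPM) in TCR-stimulated-like cells and from 60.6 to 82.8 CPM (median 65.7 CPM) in resting-like cells. Its groups overlapped, although each set was higher than its own resting-like cells, and the log2 ratio was 0.68 (0.40 to 0.95). In all, 6 genes called higher and Eno1, called lower, had sets that did not overlap, against 10.5% and 4.46% of the genes tested.

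Eno1 went the other way. It ranged from 316 to 430.04 CPM (median 383 CPM) in TCR-stimulated-like cells and from 466 to 559 CPM (median 481 CPM) in resting-like cells, a log2 ratio of -0.35 (-0.49 to -0.22). All 6 sets were lower and the groups did not overlap. Eno1b, a second enolase gene in the table whose reads may be shared with Eno1, was lower as well, at 42.3 CPM in TCR-stimulated-like cells and 63.7 CPM in resting-like cells (log2 ratio -0.59, lower in 6 of 6 sets). Because of such near-identical copies, the separate levels of Eno1 and Eno1b, of Aldoa and Aldoart1, and of Pgk1 and Pgk1-rs7 are uncertain; the other copies stood at 3.24 CPM or less. Ldha ranged from 402 to 626 CPM (median 534 CPM) in TCR-stimulated-like cells and from 431 to 476 CPM (median 459.9 CPM) in resting-like cells. Its groups overlapped, 5 of 6 sets were higher, and the log2 ratio was 0.25 (0.13 to 0.37).

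**Figure D2:**
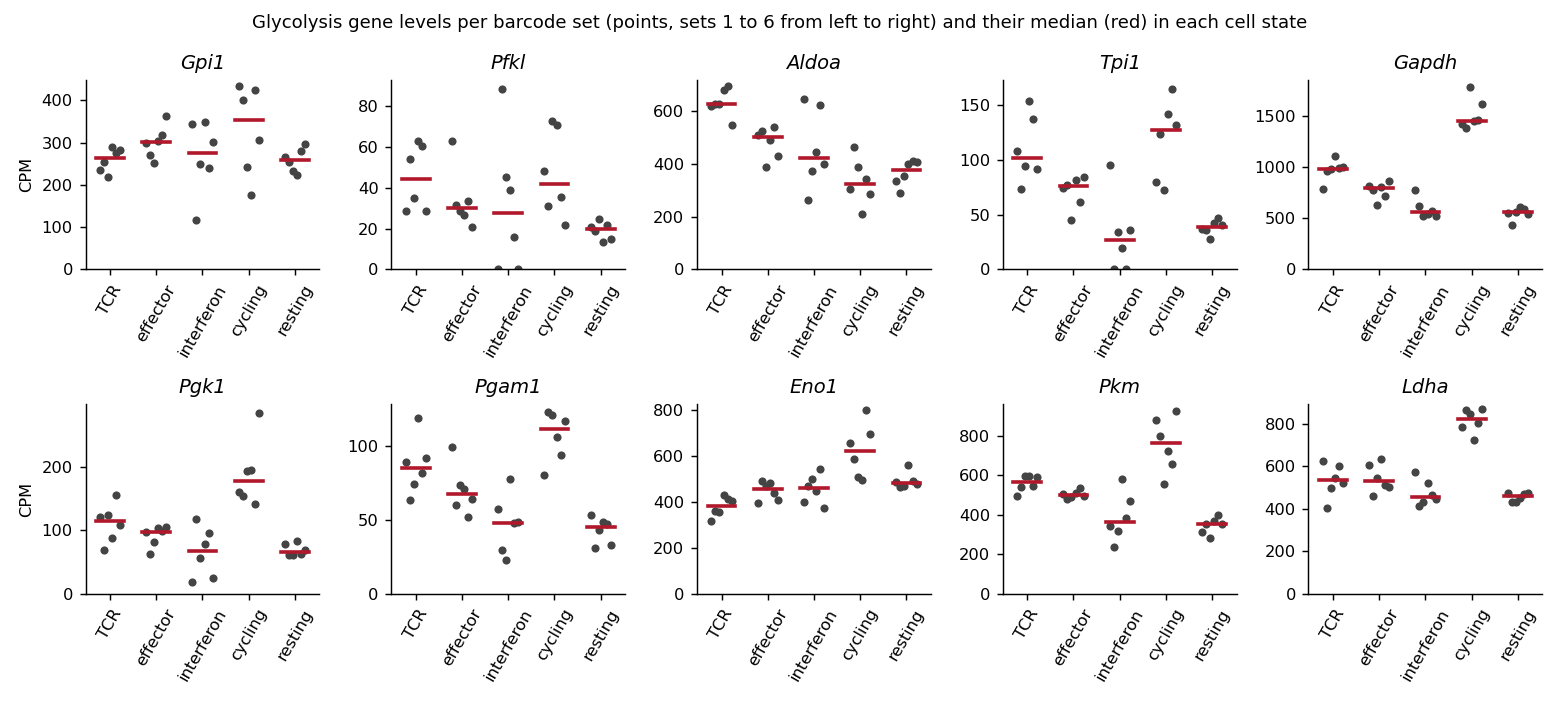
CPM of each glycolysis gene in each barcode set (points, sets 1 to 6 from left to right) and the median of the sets (red line) in TCR-stimulated-like (TCR), effector-like, interferon-response-like, cycling-like and resting-like cells. Each vertical axis starts at 0 and has its own scale. Gapdh lies between 789 and 1114 CPM in TCR-stimulated-like cells and between 437 and 615 CPM in resting-like cells, while the Gpi1 points of these states cover the same range.

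The composition of the libraries moved with these states. Ribosomal protein genes held 30.1% of the UMIs of TCR-stimulated-like cells (28.9% to 31.3% across sets) and 38.7% of those of resting-like cells (35.3% to 41.4%), and the median gene was 0.22 higher on the log2 scale. Relative to the median gene, 6 genes were called higher and Eno1 lower (log2 -0.57), against 10.7% and 11.9% of genes tested. Pgk1 was the gene no longer called, at 0.46, and Ldha stood at 0.03. Genes of an immediate early and stress response summed to 1439 CPM in TCR-stimulated-like cells and 725 CPM in resting-like cells. The 8 myeloid markers summed to 167 CPM (155 to 188 CPM across sets; C1qb at 0) in TCR-stimulated-like cells and 114 CPM (90.2 to 144 CPM; Csf1r at 0) in resting-like cells, and the 6 B cell markers to 42.3 CPM (30.1 to 53.9 CPM) in TCR-stimulated-like cells and 43.8 CPM (35.2 to 60.8 CPM) in resting-like cells. The part of the immediate early, stress and myeloid genes in the ratios was not tested. Without cells bearing UMIs of other types and the deepest 2% of cells, 5 genes (Aldoa, Tpi1, Gapdh, Pgk1 and Pkm) were called higher and Eno1 lower.

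Among the 23 other settings tried, 6 of which left out a barcode set each, Aldoa, Tpi1, Gapdh and Pkm were called higher in all 23, Pfkl and Pgam1 in 19, Pgk1 in 17, and Eno1 was called lower in 19. Only these first 4 were called higher in cells of 1500 to 3000 UMIs and in states set at 500 UMIs per cell. The settings that changed only the gene filter (100 UMIs or 100 CPM) kept the same cells. The filter was not applied to the glycolysis genes, so these settings could not change their calls. Over all Treg cells, Pfkl (28.2 CPM), Tpi1 (59.4 CPM), Pgam1 (59.9 CPM) and Pgk1 (83.2 CPM) lay below 100 CPM. Their counts of calls still include the setting at 100 CPM, which lends them no support. Where a set was left out, a call needed 1 direction only in the sets that remained. Between tertiles of activated minus resting markers, a broader split of the cells, the log2 ratio was 0.88 for Tpi1 and 0.56 for Pfkl. Without barcode set 1 the Eno1 ratio was -0.30, below the size of a call.

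**Figure D3:**
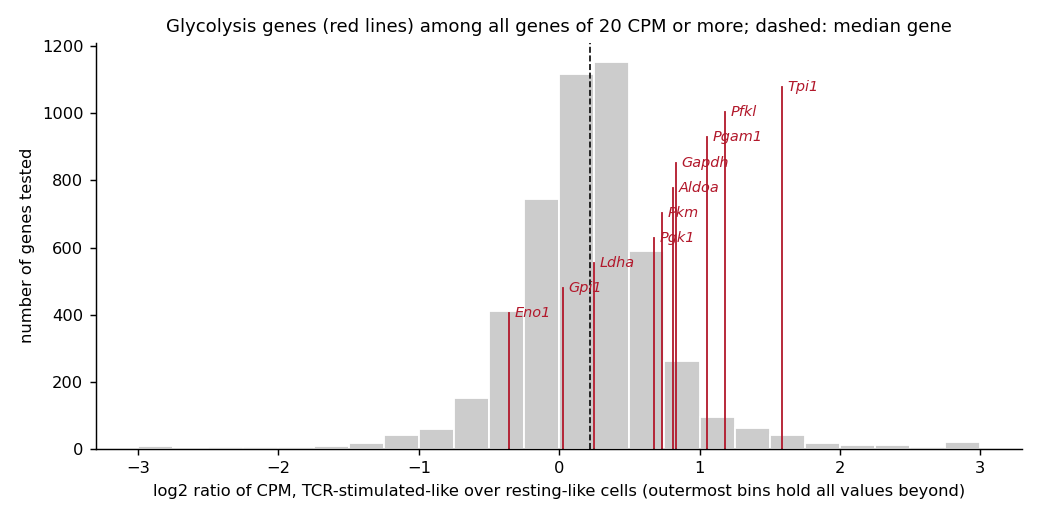
Number of genes (vertical axis) by log2 ratio of CPM in TCR-stimulated-like over resting-like cells, for the 4844 genes of 20 CPM or more; the outermost bins hold all values beyond. Red lines mark the glycolysis genes, and their height has no meaning. Eno1 lies left of 0 at -0.35, Gpi1 and Ldha lie near the dashed median gene at 0.22, and the other genes lie between 0.68 and 1.58.

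In effector-like cells, 7 of the 10 genes were called higher than in resting-like cells and none was called lower, against 19.3% and 4.03% of genes tested. Tpi1 was 1.95-fold higher, Pfkl 1.69-fold, Pgam1 1.58-fold, Pkm 1.5-fold, Gapdh 1.43-fold, Pgk1 1.36-fold and Aldoa 1.36-fold. The median log2 ratio was 0.48 over the 10 genes and 0.22 over all genes. Relative to the median gene, Tpi1 (0.74), Pfkl (0.54) and Pkm (0.37) were called higher and the other 4 were not, and Eno1 (-0.35) was called lower, against 7.68% and 8.65% of genes tested. Ribosomal protein genes held 29.0% of the UMIs of effector-like cells and 38.7% of those of resting-like cells.

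Pkm, the pyruvate kinase gene, ranged from 483 to 537 CPM (median 502 CPM) in effector-like cells and from 282 to 402 CPM (median 354 CPM) in resting-like cells, a log2 ratio of 0.59 (0.48 to 0.70). Gapdh ranged from 637 to 869 CPM (median 795 CPM) in effector-like cells and from 437 to 615 CPM (median 561 CPM) in resting-like cells, a log2 ratio of 0.51 (0.43 to 0.60). These were the 2 genes whose sets did not overlap, against 7.89% of genes tested. Tpi1 ranged from 44.9 to 84.6 CPM (median 75.8 CPM) in effector-like cells and from 28.2 to 47.3 CPM (median 38.6 CPM) in resting-like cells, so its lowest effector-like set fell within the resting-like range. Eno1 stood at 446 CPM in effector-like cells and 488 CPM in resting-like cells, with 4 of 6 sets lower (log2 ratio -0.13, -0.24 to -0.02). Ldha (0.27) and Gpi1 (0.26) were higher in 6 of 6 sets but below the size of a call. With levels from thinned UMIs, 2 genes (Pfkl and Pkm) remained called. The 8 myeloid markers summed to 188 CPM in effector-like cells and 114 CPM in resting-like cells (C1qb at 0 in effector-like cells, Csf1r at 0 in resting-like cells), and their part was not tested.

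Set directly against effector-like cells, a comparison added after the data had been seen, TCR-stimulated-like cells had 1 of the 10 genes called higher and none lower, against 9.72% and 9.29% of genes tested. This gene was Aldoa, which ranged from 549.6 to 696 CPM in TCR-stimulated-like cells and from 388 to 541 CPM in effector-like cells (log2 ratio 0.37, 0.25 to 0.49), with no overlap, as had 4.85% of genes tested. Aldoa was not called with states set at 500 UMIs, where Tpi1 was, nor in cells of 1500 to 3000 UMIs, where Gapdh was, nor at 1.5-fold. Tpi1 (0.62) and Gapdh (0.32) were higher in 5 of 6 sets and not called. Gpi1 (-0.24) and Eno1 (-0.23) were lower in 6 of 6 sets but below the size of a call. Of the regulators and neighbouring enzymes, Myc (1.86) and Hif1a (0.70) were called higher in TCR-stimulated-like than in effector-like cells, and Idh3a (-1.01) and Hk1 (-0.37) lower. Both activated states had a median of about the same depth, 2022 UMIs in TCR-stimulated-like cells and 1971 in effector-like cells.

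In interferon-response-like cells, none of the 10 genes was called against resting-like cells in either direction, where 6.83% of genes tested were called higher and 1.09% lower. Their log2 ratios ran from -0.22 (Pgk1) to 0.47 (Pfkl), with a median of 0.08 against 0.03 for all genes. The state holds 162 cells and 371501 UMIs, and intervals were wide for the low genes: Tpi1 had 12 UMIs and a log2 ratio of -0.21 (-1.20 to 0.63). Gapdh, with 215 UMIs, stood at 579 CPM in interferon-response-like cells and 548 CPM in resting-like cells (log2 ratio 0.08, -0.13 to 0.28).

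In cycling-like cells, 7 of the 10 genes were called higher than in resting-like cells and none lower, against 17% and 5.08% of genes tested, and relative to the median gene the count was also 7, against 12.7%. Tpi1 was 3.35-fold higher, Pgk1 2.97-fold, Gapdh 2.80-fold, Pgam1 2.45-fold, Pkm 2.34-fold, Pfkl 2.11-fold and Ldha 1.81-fold. Gapdh ranged from 1389 to 1792 CPM (median 1456 CPM) in cycling-like cells and from 437 to 615 CPM (median 561 CPM) in resting-like cells. Ldha ranged from 726 to 869 CPM (median 824 CPM) in cycling-like cells and from 431 to 476 CPM (median 459.9 CPM) in resting-like cells. Both genes were apart in all 6 sets, as were Tpi1, Pgk1, Pgam1 and Pkm, which makes 6 genes against 7.87% of genes tested. Eno1 (656 CPM in cycling-like cells, 488 CPM in resting-like cells) was higher in 5 of 6 sets and not called, and Gpi1 (333 CPM in cycling-like cells, 257 CPM in resting-like cells) likewise. Aldoa stood at 314 CPM in cycling-like cells and 360 CPM in resting-like cells, a log2 ratio of -0.20 (-0.47 to 0.06), with 4 of 6 sets lower.

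The cycling-like values rest on 47 cells, 4 to 13 in a set, with a median of 7887 UMIs per cell, against 2519.5 UMIs in resting-like cells. The authors' second table keeps 25 of these cells; among those, Gapdh and Pkm were called higher and Aldoa lower (log2 ratio -0.93), and Pgk1 stood at 0.13. Markers of effector-like cells summed to 9345 CPM in cycling-like cells and 1845 CPM in resting-like cells. Depth and the cell cycle cannot be told apart for these cells, since only 2 of them had 1500 to 3000 UMIs.

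Depth was therefore examined over all Treg cells, by a split that did not hold the state fixed. Deep and shallow cells may differ in state too, and this was not tested. In deep cells (the upper tertile of UMIs within each set, 3457 cells, median 3150 UMIs), 4 of the 10 genes were called higher than in shallow cells (the lower tertile, 3467 cells, median 1443 UMIs), against 5.1% of genes tested, and none was called lower, against 18.2%. Pgk1 ranged from 87.4 to 113 CPM (median 99.6 CPM) in deep cells and from 32.4 to 69.1 CPM (median 57.2 CPM) in shallow cells, a log2 ratio of 0.84 (0.65 to 1.03). Gapdh stood at 802 CPM in deep cells and 558 CPM in shallow cells (0.52), Eno1 at 485 CPM in deep cells and 362 CPM in shallow cells (0.42), and Ldha at 515 CPM in deep cells and 405 CPM in shallow cells (0.35). Pgk1, Gapdh and Eno1 had sets that did not overlap, against 3.67% of genes tested. The median log2 ratio was 0.29 over the 10 genes and -0.15 over all genes, and relative to the median gene 6 genes were called higher (Tpi1 and Gpi1 besides those 4), against 10.5%. Aldoa went the other way, lower in 6 of 6 sets at a log2 ratio of -0.18 (-0.25 to -0.11), below the size of a call, and Pfkl stood at -0.47 with 4 of 6 sets lower. TCR-stimulated-like cells, at a median of 2022 UMIs, were shallower than resting-like cells, at 2519.5 UMIs.

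**Figure D4:**
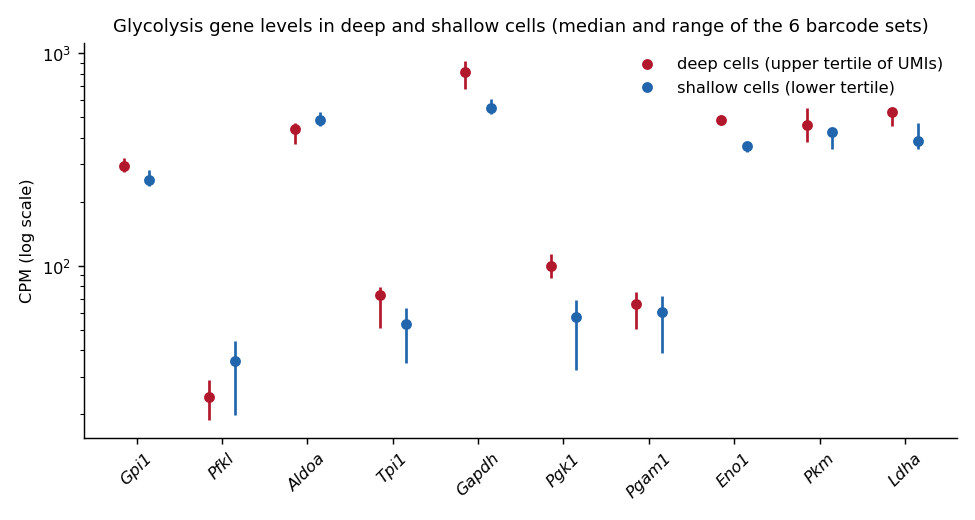
CPM (log scale) of each glycolysis gene in deep cells (red) and shallow cells (blue), the upper and lower tertile of UMIs per cell within each barcode set. Points are the median of the 6 sets and bars run from the lowest to the highest set. Pgk1, Gapdh and Eno1 show no overlap, with Pgk1 at 87.4 to 113 CPM in deep cells and 32.4 to 69.1 CPM in shallow cells.

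Summed over the 10 genes in cells thinned to 1000 UMIs, the mean was 4.60 UMIs per cycling-like cell, 3.5 per TCR-stimulated-like cell, 3.16 per effector-like cell, 2.56 per interferon-response-like cell and 2.54 per resting-like cell. The set means ran from 3.25 to 5.69 in cycling-like cells, from 3.39 to 3.62 in TCR-stimulated-like cells, from 2.82 to 3.30 in effector-like cells, from 2.03 to 3.04 in interferon-response-like cells and from 2.26 to 2.79 in resting-like cells. The TCR-stimulated-like, effector-like and resting-like ranges did not overlap each other. The interferon-response-like range overlapped the resting-like and effector-like ones, and the cycling-like range the TCR-stimulated-like and effector-like ones. These sums were not set relative to the median gene. That gene was 0.22 higher on the log2 scale in both TCR-stimulated-like and effector-like cells than in resting-like cells. To see how the 10 genes varied together, cells were ranked within each set by the thinned UMIs of the other 9 genes, and the upper tertile was set against the lower. Pgk1 and Tpi1 (log2 ratio 0.46 each) were called higher in the upper tertile, and 2.5% of genes outside the 10 were called higher between tertiles of the summed 10 genes. Pkm (0.29), Gapdh (0.24) and Aldoa (0.18) were higher in 6 of 6 sets and below the size of a call, and Pfkl stood at -0.03. Of the TCR-stimulated-like cells, 43.5% fell in the upper tertile of the summed genes, against 26.3% of the resting-like cells. At these counts a cell holds few molecules of any gene, so a weak ratio here is no finding.

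Across 24 points (4 states by 6 sets; the cycling-like state had too few cells), Pgam1 (r = 0.83), Pkm (0.78) and Gapdh (0.76) followed the mean of the other genes of the route most closely, and Eno1 ran against it (r = -0.51). The genes outside the route whose profile was most like the mean of the 10 were Ucp2 (0.87), an uncoupling-protein family member of the inner mitochondrial membrane, Jund (0.86), an AP-1 factor, and Lcp1 (0.85), an actin-bundling protein. Tnfrsf18, Prdx1, Cox6b1, Smco4, Ndfip1, Ubl5 and Etfb followed, down to 0.81, and the median over 1177 genes of 100 CPM or more was 0.30. Of the other genes of the route, Gpi1 (0.28) and Pfkl (0.22) lay below this median and Pgk1 (0.38) near it. Aldoa (0.68), Ldha (0.65) and Tpi1 (0.63) stood above it. Points of 1 state share its depth and ribosomal share, points of 1 set share a barcode number, and these values are descriptions.

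Other genes of glucose metabolism were read from 8 lists. Glucose uptake and its control could hardly be read: of 6 genes for glucose transporters and hexokinases, Hk1 alone reached 20 CPM, and none of 5 genes that set fructose 2,6-bisphosphate did. Hk1, which phosphorylates glucose, stood at 48.0 CPM in TCR-stimulated-like cells and 40.9 CPM in resting-like cells (log2 ratio 0.23, -0.18 to 0.63) and was not called. Slc2a1 (16.1 CPM over all Treg cells), Slc2a3 (19.5 CPM) and Hk2 (3.5 CPM) were below the limit. Slc2a3, named after its values were seen and not tested, stood at 31.3 CPM in effector-like cells and 17.3 CPM in resting-like cells. That log2 ratio was 0.86 (0.38 to 1.34, higher in 6 of 6 sets), against 0.08 (-0.59 to 0.73) in TCR-stimulated-like cells. Slc2a1 stood at 0.38 (-0.21 to 0.95) in effector-like cells, higher in 4 of 6 sets. Among 2 tested isozymes, Ldhb, which favours lactate oxidation, stood at 124 CPM in TCR-stimulated-like cells and 72.2 CPM in resting-like cells (0.78, higher in 5 of 6 sets, not called), and Pfkp, the platelet-type phosphofructokinase, at -0.10.

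Of 8 tested genes for the fate of pyruvate and lactate, 3 were called higher and 1 lower in TCR-stimulated-like cells, against 21.1% and 6.15% of all genes tested. Relative to the median gene 0 were higher and 2 lower, against 10.7% and 11.9%. Pdk1, a kinase that shuts off pyruvate dehydrogenase, ranged from 9.53 to 25.8 CPM (median 16.9 CPM) in TCR-stimulated-like cells and from 40.5 to 98.5 CPM (median 66.5 CPM) in resting-like cells. The groups did not overlap, and its log2 ratio was -2.05 (-2.69 to -1.47). It was also lower in effector-like cells (-1.28) and, on 5 UMIs, in cycling-like cells (-2.50), all against the same resting-like cells. Pdk3, another such kinase, named after its values were seen, was just below the level limit (19.8 CPM over all Treg cells) and so not tested. It stood at 30.3 CPM in TCR-stimulated-like cells and 12.4 CPM in resting-like cells (log2 ratio 1.29, 0.69 to 1.89, higher in 6 of 6 sets). Mdh1 (0.52), of the malate shuttle, Bsg (0.45), the chaperone of lactate transporters, and Mpc1 (0.45), of the mitochondrial pyruvate carrier, were called higher in TCR-stimulated-like cells and none of them relative to the median gene. Got1, the aminotransferase of the same shuttle, was called higher in cycling-like cells (0.81) on 14 UMIs. None of the 6 tested pentose phosphate genes was called, with Tkt at 0.15, Pgls at -0.03 and Taldo1 at -0.23.

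Of 7 tested regulators of transcription and mTOR signalling, 3 were called higher in TCR-stimulated-like cells and 2 relative to the median gene, against 21.1% and 10.7% of all genes tested. Hif1a, the hypoxia-inducible factor that activates glycolysis genes, ranged from 132 to 176 CPM (median 157 CPM) in TCR-stimulated-like cells and from 52.5 to 79.6 CPM (median 63.4 CPM) in resting-like cells, a log2 ratio of 1.33 (1.07 to 1.58). Myc ranged from 81.6 to 146 CPM (median 102 CPM) in TCR-stimulated-like cells and from 45.3 to 62.5 CPM (median 51.4 CPM) in resting-like cells, a log2 ratio of 1.0 (0.70 to 1.29). Neither gene overlapped between the states. Rheb, the GTPase that activates mTORC1, stood at 0.57 and was not called relative to the median gene. In effector-like cells Hif1a was higher (0.62) and Myc lower, at 29.7 CPM in effector-like cells and 54.0 CPM in resting-like cells (-0.86). In cycling-like cells Ddit4, an mTORC1 inhibitor, was called lower (-1.45). Of the hypoxia targets outside the route, 2 of 10 could be tested, and Higd1a (0.58, 5 of 6 sets) and Bnip3l (-0.15) were not called in TCR-stimulated-like cells.

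Of 16 tested genes of the tricarboxylic acid cycle, 10 were called higher in cycling-like cells and 6 relative to the median gene, against 17% and 12.7% of genes tested. Fh1, fumarate hydratase, stood at 113 CPM in cycling-like cells and 24.8 CPM in resting-like cells (2.19, 1.66 to 2.71), and Sdhb, a succinate dehydrogenase subunit, at 309 CPM in cycling-like cells and 159 CPM in resting-like cells (0.96). Others called higher were Dld (1.31), Idh2 (1.16), Idh3g (0.95), Ogdh (0.94), Cs (0.92), Mdh2 (0.50) and Idh3b (0.37). In effector-like cells 3 of the 16 were called higher, a share near the 19.3% of all genes tested, led by Idh3a, an isocitrate dehydrogenase subunit, at 70.1 CPM in effector-like cells and 30.4 CPM in resting-like cells (1.21, 0.87 to 1.55), with Ogdh (0.56) and Sdhd (0.35). In TCR-stimulated-like cells 2 of the 16 were called higher, a share below the 21.1% of all genes tested (Dld, 0.96, and Sdhb, 0.32), and Idh2 was called lower (-0.53); none of the 16 was called higher relative to the median gene. Idh2 rests on 32 UMIs in TCR-stimulated-like cells, and its interval reached 0.04. In interferon-response-like cells Fh1 (0.70), Dld (0.39) and, outside the cycle, Ldhb (0.38) were called higher on 9 to 35 UMIs.

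**Figure D5:**
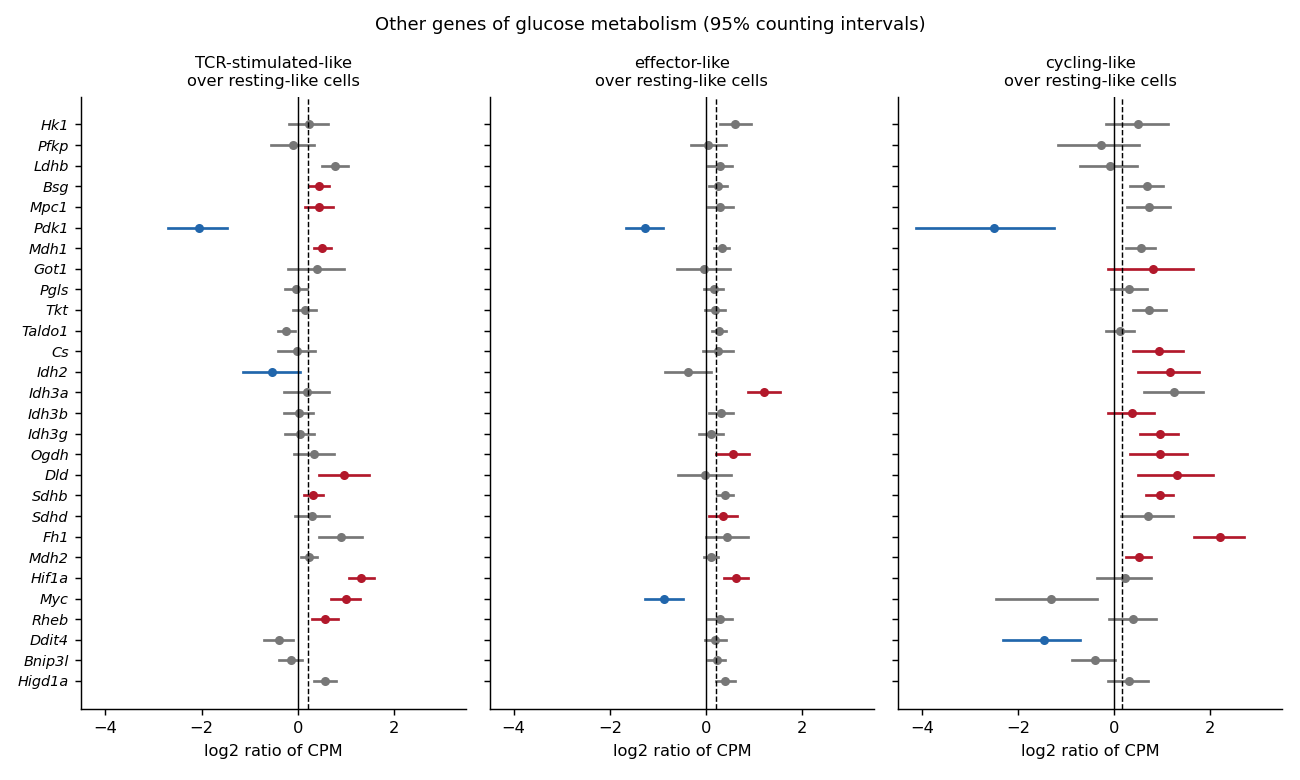
Log2 ratio of the CPM of other genes of glucose metabolism (rows) in TCR-stimulated-like, effector-like and cycling-like cells over resting-like cells. Points are pooled UMIs, bars are 95% intervals of counting error, red marks genes called higher, blue genes called lower, grey genes not called, and the dashed line is the median gene. Pdk1 is lower in all 3 states (-2.05, -1.28 and -2.50), and Myc is at 1.0 in TCR-stimulated-like cells and -0.86 in effector-like cells.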

How the data were processed

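EGFP-positive sorted spleen cells of 3 cKO and 3 WT samples were profiled with the 10x Chromium 3′ chemistry, which marks molecules with UMIs, and sequenced on an Illumina HiSeq, per the labels' protocols. The build was mm10 and the notes name cutadapt, FastQC, HISAT2, Seurat and Cell Ranger, per the submitters' processing notes; versions and the order of steps are not given in the sources used here. The authors deposited raw UMI counts per gene and cell. The authors also deposited a second table of natural log values, used here only for the list of 10464 cells that it keeps. All 10685 cell columns are named by barcode alone, which matches no sample's labels.

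Analysis used Python 3.11.15, numpy 2.4.6, scipy 1.17.1, pandas 2.3.3 and matplotlib 3.10.9. Cells with at least 2 distinct B, myeloid or CD8 markers, or 1% erythroid UMIs, were left out. Each other cell of 1000 UMIs or more was thinned to 1000 UMIs without replacement (seed 1). A cell was cycling-like, then interferon-response-like, at 3 distinct markers; otherwise it took the state among TCR-stimulated, effector and resting with at least 3 distinct markers and at least 2 more than either other state. Levels are CPM of pooled unthinned UMIs. Ratios have exact conditional binomial 95% intervals, and levels exact Poisson ones; both cover counting error only, since cells of a sample share their source. Ratios per barcode set had 0.5 UMIs added. Genes of at least 20 CPM over all Treg cells were tested; a call needs a log2 ratio of 0.32 and 6 of 6 sets in 1 direction. Every cell type uses glycolysis, so no cell type gives a background level of free RNA.

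Promoters are RefSeq windows (GRCm38.p6). The members and lists were chosen with earlier results of these data known. Named are all 10 genes, every listed pathway gene called in a comparison or the 2 highest of its list, and the 10 genes of 100 CPM or more most like the mean profile, by Pearson's r of log2(CPM + 10); 1 called gene is not reported here. The immediate early and stress list was chosen after the data had been seen. Alternatives changed the marker number, thinning, cells kept, scaling, gene filter, fold and barcode sets.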

Additional observations from a re-analysis of the deposited data

Results flagged for a closer look

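In all, 30 values per barcode set were checked for a set far from the other 5. They were the level of each gene over all Treg cells, and its ratio in TCR-stimulated-like and in effector-like over resting-like cells. Of these 30 values, 2 stood apart. How many would stand apart by chance was not tested, so these 2 are only descriptions. Gpi1 had a log2 ratio of 0.36 in TCR-stimulated-like over resting-like cells in barcode set 4, against -0.16 to 0.01 in the other sets. Eno1 had a log2 ratio of -0.61 in TCR-stimulated-like over resting-like cells in barcode set 1, against -0.38 to -0.24 in the other sets; without that set its pooled ratio was -0.30.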

How the results depend on the processing

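No called ratio of any of the 10 genes changed sign under any alternative run. Over the 23 alternatives in TCR-stimulated-like cells, the log2 ratios ran from 0.88 to 1.70 for Tpi1, 0.56 to 1.33 for Pfkl, 0.63 to 1.21 for Pgam1, 0.55 to 0.92 for Gapdh, 0.43 to 0.89 for Aldoa, 0.50 to 0.87 for Pkm, 0.44 to 0.91 for Pgk1 and -0.57 to -0.18 for Eno1. Of all values of single genes, 115 moved beyond their counting interval and 1135 did not. The 1135 include settings that changed only the gene filter or the fold of a call, where a ratio could not move. In TCR-stimulated-like over resting-like cells, 7 genes were called higher and 1 lower; 4 were higher with states set at 500 UMIs and in cells of 1500 to 3000 UMIs, and 0 were lower at 4 distinct markers, at 1.5-fold and between tertiles of activated minus resting markers. In effector-like cells, 7 were called higher and 0 lower, against 3 higher and 1 lower both without ribosomal and mitochondrial genes and centred on the median gene, 2 higher from thinned UMIs, and 4 higher at 1.5-fold and in cells of 1500 to 3000 UMIs. In interferon-response-like cells, 1 gene (Aldoa) was called higher at 2 distinct markers and with another thinning seed. In cycling-like cells, 2 were higher and 1 lower in the cells of the authors' second table; 2 settings (cells of 1500 to 3000 UMIs, and without other types and the deepest 2%) left a set with no cell and gave no value. In TCR-stimulated-like over effector-like cells, 1 gene was called higher, but 3 at 2 distinct markers, 2 from thinned UMIs, 4 without other types and the deepest 2%, and 0 at 1.5-fold, while 2 were lower with states set at 500 UMIs. In deep over shallow cells, 4 were higher, but 2 without other types and the deepest 2% and 1 at 1.5-fold, and 1 was lower from thinned UMIs. In the co-variation, 1 gene was called at 500 UMIs. The cause of these changes was not tested.

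With a set left out the rule of a call is looser, since only the remaining sets must go in 1 direction. Leaving out each barcode set in turn gave 7 genes called higher and 0 to 1 lower in TCR-stimulated-like cells. It gave 7 and 0 in effector-like, 0 and 0 in interferon-response-like, and 7 to 9 and 0 in cycling-like cells. In TCR-stimulated-like over effector-like cells it gave 1 to 4 and 0, and in deep over shallow cells 3 to 5 and 0. Over all genes tested, these counts were 1108 to 1196 higher and 324 to 345 lower in TCR-stimulated-like cells, 1011 to 1078 and 208 to 223 in effector-like cells, 422 to 453 and 89 to 103 in interferon-response-like cells, 942 to 998 and 284 to 324 in cycling-like cells, 540 to 553 and 502 to 572 in TCR-stimulated-like over effector-like cells, and 251 to 274 and 909 to 1059 in deep over shallow cells.

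Counts over all genes moved by over 1.5 times in these settings. For TCR-stimulated-like cells (1022 higher, 298 lower), 583 and 521 were called without ribosomal and mitochondrial genes, 516 and 578 centred, 357 and 142 at 100 CPM, 637 and 169 at 1.5-fold, and 153 lower between marker tertiles. For effector-like cells (937 and 195), they were 387 and 400 without ribosomal and mitochondrial genes, 372 and 419 centred, 317 and 105 at 100 CPM, 470 and 90 at 1.5-fold, and 585 higher from thinned UMIs. For interferon-response-like cells (331 and 53), they were 96 and 20 at 100 CPM, 109 lower without ribosomal and mitochondrial genes, and 870 higher among genes of 100 UMIs or more. For cycling-like cells (824 and 246), they were 486 and 485 without ribosomal and mitochondrial genes, 1519 higher at 100 UMIs, 296 higher at 100 CPM, 83 lower from thinned UMIs and 154 lower in the authors' second table. For TCR-stimulated-like over effector-like cells (471 and 450), they were 149 and 160 at 100 CPM, 295 and 292 at 1.5-fold, 270 lower in cells of 1500 to 3000 UMIs and 260 lower from thinned UMIs. For deep over shallow cells (247 and 881), they were 489 and 404 without ribosomal and mitochondrial genes, 507 and 368 centred, 118 and 175 at 100 CPM, 72 and 247 at 1.5-fold, and 1430 lower at 100 UMIs. Without ribosomal and mitochondrial genes, the log2 ratio of the highest to the lowest set was 0.13 for Aldoa, 0.20 for Gapdh and 0.30 for Pkm, against 0.24, 0.30 and 0.42.

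No paired analysis was possible because the cell columns carry no replicate number of the labels; each call does set a state against cells of the same barcode set. The comparison of the 2 activated states, the list without immediate early genes, the other settings of the co-variation and the removal of shared barcodes were chosen after seeing the data. Depth limits the low genes: Pfkl had 689 UMIs over all Treg cells and Tpi1 1449.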

Other observations

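Cells left out of the Treg cells also held the glycolysis genes. In the 173 cells with myeloid markers (median 2702 UMIs), Gapdh stood at 1042 CPM and Tpi1 at 156 CPM, against 693 CPM and 59.4 CPM in Treg cells. In the 135 cells with B cell markers (median 2079 UMIs), Tpi1 stood at 110.4 CPM and Pkm at 363 CPM, against 59.4 CPM and 436 CPM in Treg cells. These cells may hold RNA of more than 1 cell, and no state was set for them.

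In deep over shallow cells, 1 of 7 tested regulators and 1 of 6 tested pentose phosphate genes were called higher, where 5.1% of all genes tested were, and 1 of 2 tested isozymes was called lower, where 18.2% were; none was called in the other lists. Myc stood at 57.7 CPM in deep cells and 29.5 CPM in shallow cells (log2 ratio 0.97, higher in 6 of 6 sets), and Tkt, of the pentose phosphate route, at 148 CPM in deep cells and 103 CPM in shallow cells (0.52, 6 of 6 sets). Ldhb ran the other way, at 81.8 CPM in deep cells and 131 CPM in shallow cells (-0.68, lower in 6 of 6 sets).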
